A study of Mus musculus with 8 samples.

Results

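The Ach1 cluster was 1 of the 8 neuronal subtypes that the authors named in the mouse stellate ganglia, the paired sympathetic ganglia at the base of the neck that send axons to the heart and forelimb. Its members were taken as every neuron that carried this name in the deposited annotation, 64 of 1303 neurons. The mice were male C57BL6/J, aged 8 to 10 weeks and all of 1 condition: each had received a retrograde adeno-associated virus for GFP in the heart and another for tdTomato in the front paws, with a CAG promoter and a flex cassette by the study's methods, which name no Cre for these mice. Left and right ganglia were digested together, with 16 ganglia combined in the protocol, and cells were captured on the 10x Chromium system, which counts unique molecular identifiers (UMIs). Of 8 mouse names in the annotation, 5 matched a single sample label (replicates 1 to 5, 1002 neurons). The other 3 names (301 neurons) matched no single label and entered pooled values only.

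Most neurons of the stellate ganglion are noradrenergic: tyrosine hydroxylase (Th), dopa decarboxylase (Ddc) and dopamine beta-hydroxylase (Dbh) make noradrenaline, Slc18a2 loads it into vesicles and Slc6a2 takes it back up. A minority are cholinergic, chiefly those that serve sweat glands, and these use choline acetyltransferase (Chat), the vesicular transporter Slc18a3 and the choline transporter Slc5a7, often with the peptide Vip. Sympathetic cell bodies sit inside a sleeve of satellite glia, among Schwann cells, fibroblasts, vessels and resident macrophages.

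The cluster was gathered in 1 mouse. Of the 62 Ach1 neurons in the 5 matched mice, 55 came from replicate 4, 3 from replicate 1, 2 from replicate 2, and 1 each from replicates 3 and 5. Ach1 made up 23.4% of the neurons of replicate 4 (55 of 235, exact 95% binomial interval 18.1 to 29.3%), against 0.508 to 1.76% in the other 4 matched mice, and the mean was 5.43% ± 10.1 (SD, n = 5). Replicate 4 stood apart from the other mice, and its interval did not overlap theirs. The remaining 2 Ach1 neurons were from an unmatched mouse. With 1 mouse behind nearly every member, and with subtypes that were made by clustering these same cells, the differences below are descriptions without a test, and all intervals cover counting error only. No Ach1 neuron shared its barcode with another library, while 73 neurons of the series (21 barcodes) did, 14 of them NA2 neurons of replicate 4.

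Ach1 neurons of replicate 4 held few UMIs. Their median was 2072 UMIs (1482 to 13078) and 1302 genes per neuron, against a median of 4551.5 UMIs in the 156 noradrenergic neurons of that mouse (NA1a, NA1b, NA1c, NA2 and NA3 together). The subtype medians were 8678 in NA1a, 9223 in NA1b, 3687.5 in NA1c, 2300 in NA2 and 4209 in NA3, so that NA2 was the nearest in depth. In all, the 55 neurons gave 135426 UMIs and the 156 noradrenergic neurons 952641. A pair of the 55 stood apart: they held 8762 and 13078 UMIs, against 1482 to 5055 in the other 53, and together gave 16.1% of the cluster's UMIs in that mouse. Where leaving them out changed a 2-fold count or an order of levels described below, the value without them is given as well. The 9 Ach1 neurons outside replicate 4 had a median of 11268 UMIs (2209 to 17897), and 3 of them lay within the range of the 53.

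**Figure D1:**
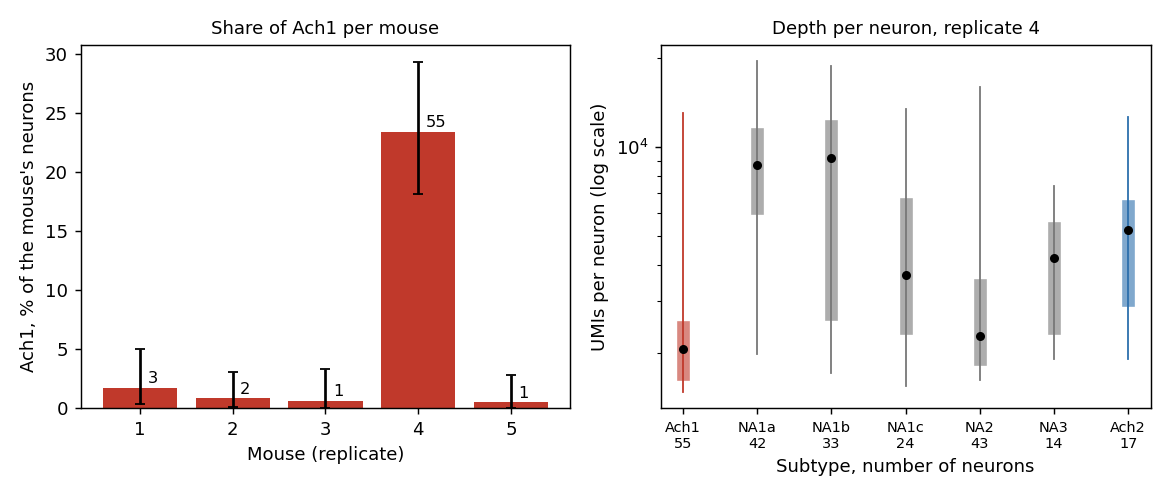
Left, Ach1 as a percentage of the neurons of each matched mouse, with exact 95% binomial intervals and the number of Ach1 neurons above the bars; replicate 4 reaches 23.4% and the others lie between 0.508 and 1.76%. Right, UMIs per neuron by subtype in replicate 4 on a log scale (line, range; thick bar, quartiles; dot, median), where Ach1 has the lowest median of the subtypes drawn, 2072 UMIs.

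The genes that define a cholinergic neuron were at or near 0 in Ach1, against the name of the cluster. Not 1 UMI of Chat was counted: 0 of 64 neurons had one, which allows a share of neurons with a Chat UMI of up to 4.69%, and 0 of the 55 in replicate 4 had one. This limit concerns UMIs at this depth and not the share of neurons that express the gene. The vesicular acetylcholine transporter Slc18a3 had 4 UMIs in 4 of the 55 neurons (7.27%), and the choline transporter Slc5a7 had 1 UMI. In the noradrenergic neurons of the same mouse Chat had 0 UMIs, Slc18a3 1 UMI and Slc5a7 1 UMI in 156 neurons, which held more UMIs in all. Slc18a3 was thus at 0.295 UMIs per 10000 in Ach1 and 0.0105 in the noradrenergic neurons. Its log2 ratio was 4.81 with a wide interval (1.48 to 10.4). Outside replicate 4, Slc18a3 was found in 2 of 9 Ach1 neurons. In Ach2, the other cluster with a cholinergic name, Chat was found in 8 of 17 neurons (47.1%), Slc18a3 in 10 and Slc5a7 in 9, at a median depth of 5236 UMIs. With every neuron of replicate 4 thinned to 1000 UMIs, any of the 3 transcripts was found in 2 of 55 Ach1 neurons (3.64%, 0.443 to 12.5%), in 5 of 17 Ach2 neurons (29.4%, 10.3 to 56.0%) and in 2 of 156 noradrenergic neurons (1.28%, 0.156 to 4.55%). The cluster is therefore called Ach1 here only as the annotation's name. Acetylcholinesterase, Ache, which breaks acetylcholine down and is made by many neurons, was at 4.28 UMIs per 10000 in Ach1 and 2.65 in the noradrenergic neurons of replicate 4.

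The cholinergic peptide Vip was the marker that set Ach1 between the noradrenergic neurons and Ach2. In replicate 4 it was at 4.43 UMIs per 10000 in Ach1 (exact Poisson interval 3.38 to 5.70, 60 UMIs), against 0.186 in NA1a, 0.231 in NA1b, 0.490 in NA1c, 0.368 in NA2, 1.01 in NA3 and 30.2 (26.8 to 34.0) in Ach2. The interval of Ach1 overlapped none of these. Vip was present in 37 of 55 Ach1 neurons (67.3%), with 0 to 4 UMIs in each and a median of 1 among the 53, and in 24 of 156 noradrenergic neurons (15.4%). After thinning to 1000 UMIs the shares were 36.4% and 5.13%. All 60 UMIs were in the 53, and the 2 deep neurons had 0. Outside replicate 4, Vip was found in 3 of 9 Ach1 neurons, at 0.489 UMIs per 10000, which was inside the range of the noradrenergic subtypes of replicate 4.

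UMIs of the noradrenergic machinery were found throughout the Ach1 neurons. Dbh had UMIs in 55 of 55 neurons of replicate 4, from 1 to 10 UMIs in each of the 53, and at 16.3 UMIs per 10000 (14.2 to 18.6) it was above each noradrenergic subtype, which ran from 4.20 in NA3 to 11.9 in NA1b. In Ach2 it was at 2.72, with UMIs in 12 of 17 neurons. After thinning to 1000 UMIs, Dbh was found in 83.6% of Ach1 neurons, 55.1% of noradrenergic neurons and 29.4% of Ach2 neurons. The share that RNA from outside the neuron would give was not measured. Th was at 6.65 in Ach1 and 5.23 in the pooled noradrenergic neurons, and the noradrenaline transporter Slc6a2 at 24.0 and 15.9. Ddc was at 7.16 and 5.30, and the vesicular monoamine transporter Slc18a2 at 8.79 and 9.67. Of the 12 genes of noradrenaline synthesis and handling that reached 1 UMI per 10000, 0 were 2-fold higher or lower, beside 14.1% of all 2406 genes compared that were higher and 16.4% that were lower. Without the 2 deep neurons 1 was higher, the monoamine oxidase gene Maob, with a log2 ratio of 1.21 in place of 0.95. The median log2 ratio of Ach1 over the noradrenergic neurons was 0.50 beside 0.08 over all these genes. The summed level of the list was 93.3 UMIs per 10000 in Ach1 and 68.5 in the noradrenergic neurons. In the other mice the order was the opposite, with 48.0 in Ach1 and 64.9 in the noradrenergic neurons.

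By mouse, Dbh in Ach1 was 3.37, 8.23, 2.11, 16.3 and 4.53 UMIs per 10000 in replicates 1 to 5, so that replicate 4 was the highest. In the noradrenergic neurons of the same mice Dbh was 10.5, 7.82, 12.7, 10.3 and 11.7. Ach1 was thus lower in replicates 1, 3 and 5 and higher in replicates 2 and 4. Th in Ach1 was 3.37, 5.196, 4.22, 6.65 and 9.05 in the same order, without replicate 4 at the end of the range. In the noradrenergic neurons Th was 6.42, 5.38, 7.19, 5.23 and 5.85. The Ach1 values of replicates 3 and 5 rest on 1 neuron each.

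Apod, Lum and Smoc2, the other markers given with the definition, are genes of fibroblasts rather than neurons: Apod codes for a secreted lipid carrier, Lum for the collagen-binding proteoglycan lumican and Smoc2 for a matrix-associated calcium-binding protein. Apod was at 14.99 UMIs per 10000 (13.0 to 17.2) in the Ach1 neurons of replicate 4, against 3.36 in NA3 and at most 0.293 in the other noradrenergic subtypes. Lum was at 5.32 (4.16 to 6.69) in Ach1 and at 0 in NA1a, NA1b, NA1c and NA2, with 2 UMIs in NA3. Smoc2 was at 5.61 (4.42 to 7.02) in Ach1 and at most 0.840, in NA3. These summed levels leaned on the 2 deep neurons, which held 138 of 203 Apod UMIs, 44 of 72 Lum UMIs and 46 of 76 Smoc2 UMIs. Without them the levels were 5.72 for Apod, 2.47 for Lum and 2.64 for Smoc2, still above each noradrenergic subtype. Among the 53, Apod was found in 40 neurons with at most 3 UMIs, Lum in 20 with at most 3 and Smoc2 in 23 with at most 2, against 21, 1 and 9 of the 156 deeper noradrenergic neurons.

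**Figure D2:**
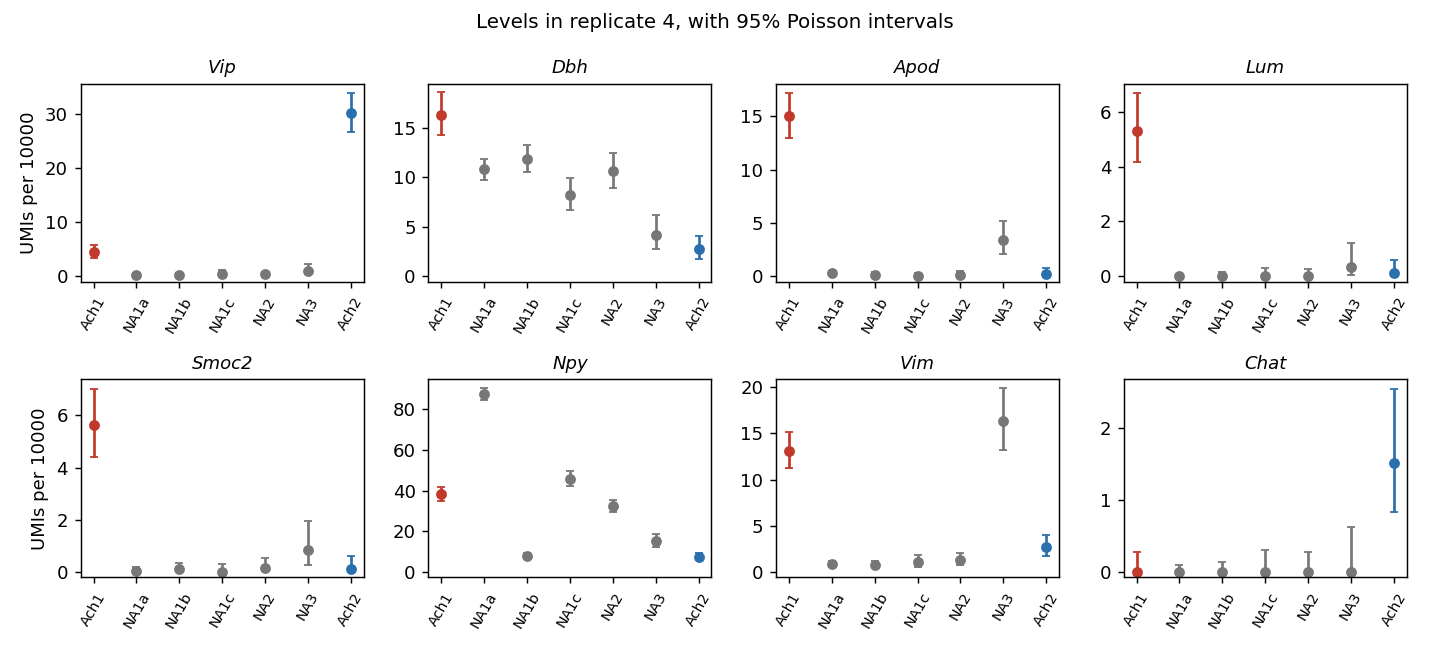
Summed UMIs per 10000 of the 5 definition markers and of Npy, Vim and Chat in each subtype of replicate 4 (points) with exact 95% Poisson intervals; red, Ach1; grey, noradrenergic subtypes; blue, Ach2. Ach1 has the highest Dbh, Apod, Lum and Smoc2, a Vip level between the noradrenergic subtypes and Ach2, and no UMI of Chat.

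Neuropeptide Y, Npy, the co-transmitter of vasoconstrictor and many other sympathetic neurons, was in the middle of the subtypes. In replicate 4 it was at 38.1 UMIs per 10000 in Ach1 (34.9 to 41.5), above NA1b (7.93), NA3 (14.96) and NA2 (32.3), below NA1a (87.4) and just below NA1c (45.8, 42.1 to 49.7). The interval of Ach1 overlapped that of NA2 (29.3 to 35.4) narrowly and that of no other subtype. In the 53 alone it was at 45.3 (41.5 to 49.4), level with NA1c and clear of NA2. Npy was evenly spread, with 3 to 16 UMIs in each of the 53 neurons, while the 2 deep neurons had 0 and 1. By mouse it was 25.0, 37.2, 40.1, 38.1 and 58.9 in Ach1. Galanin, Gal, another sympathetic peptide, was at 7.61 in Ach1 and 16.2 in the noradrenergic neurons, a log2 ratio of -1.09, and of -0.88 without the 2 deep neurons, which is no longer 2-fold. Vimentin, Vim, an intermediate filament of glia and fibroblasts, was at 13.1 in Ach1 (11.2 to 15.1), near NA3 (16.3, 13.2 to 19.9) and far above the other noradrenergic subtypes (0.732 to 1.25).

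In replicate 4, genes common to neurons differed little between Ach1 and the pooled noradrenergic neurons. Of 20 pan-neuronal genes, 1 was 2-fold higher, beside 14.1% of all genes, and 1 was 2-fold lower, beside 16.4%. The median log2 ratio was 0.00 beside 0.08 over all genes. Snap25 and Syt1, of the vesicle fusion machinery, were at 10.8 and 10.3 UMIs per 10000 in Ach1 and at 8.11 and 16.6 in the noradrenergic neurons. The filament gene Prph was at 21.9 and 21.7. Synapsin, Syn1, was the higher gene (3.69 and 1.13) and the RNA-binding protein Elavl2 the lower (4.06 and 9.85). Among granins and prohormone enzymes, Pcsk1n was at 28.9 and 45.4. Carboxypeptidase E, Cpe, was the only one of 9 past 2-fold, at 5.46 and 1.83, beside 14.1% of all genes higher and 16.4% lower. The summed pan-neuronal level was 205 in Ach1 and 220 in the noradrenergic neurons, among which NA2 was at 332 and NA3 at 108. In the other mice the summed level was 137 in Ach1 and 198 in the noradrenergic neurons. Without replicate 4 the median log2 ratio of the pan-neuronal list was -0.49.

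In replicate 4, transcripts of voltage-gated sodium and calcium channels and of some transcription factors were lower. Of 10 voltage-gated sodium and calcium channel genes compared, 7 were at least 2-fold lower, beside 16.4% of all genes, and 0 were higher, with a median log2 ratio of -1.37. Cacna1a, the pore of P/Q-type calcium channels, was at 0.517 UMIs per 10000 in Ach1 and 2.99 in the noradrenergic neurons (log2 ratio -2.53, interval -3.86 to -1.47). The sodium channel gene Scn9a was at 1.40 and 4.52 (log2 ratio -1.69). A gene under 1 UMI per 10000 in Ach1, such as Cacna1a, was compared only through the noradrenergic neurons and had to be lower. This holds for the transcription factors below too, so the counts are a description. The summed level of the whole sodium and calcium channel list, 12.04, was near that of NA2 (12.9) and NA3 (14.3) and below NA1a, NA1b and NA1c (28.0 to 30.3). In Ach1 and the noradrenergic neurons it was 21.4 and 24.5 in replicate 1 and 11.3 and 22.6 in replicate 2. In replicates 3 and 5 it was 25.3 and 23.0, and 9.05 and 25.7. Of 4 potassium channel genes compared, 1 was 2-fold lower, beside 16.4% of all genes. Their whole list summed to 10.2 in Ach1, 14.3 in the noradrenergic neurons and 7.37 in NA2. Of 12 sympathetic transcription factors, 4 were at least 2-fold lower, beside 16.4% of all genes, namely Hmx1, Meis1, Ebf1 and Casz1, with log2 ratios from -1.05 to -1.57. Without the 2 deep neurons 3 were, and Hmx1 was at -0.95. The median log2 ratio of the 12 was -0.45 beside 0.08 over all genes, and -0.42 without the 2 deep neurons. The summed level of the whole factor list was 24.1 UMIs per 10000 in Ach1 and 30.2 in the noradrenergic neurons. Among the factors that specify noradrenergic identity, Phox2a was at 0.35, Hand2 at -0.08 and Isl1 at -0.10 on the log2 scale, nearer 0 than those 4.

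Markers of 3 kinds of non-neuronal cell were higher in Ach1 together. Of 10 fibroblast genes compared, 10 were at least 2-fold higher than in the noradrenergic neurons of replicate 4 and the median log2 ratio was 4.34. Over all 2406 genes, 340 (14.1%) were at least 2-fold higher and 394 (16.4%) at least 2-fold lower. The proteoglycan gene Dcn was at 58.7 and 2.35 UMIs per 10000, Col1a1 at 2.88 and 0.0840, Col1a2 at 4.28 and 0.262, and Col3a1 at 2.29 and 0.157. Without the 2 deep neurons Dcn was at 20.95, and its log2 ratio was 3.16 in place of 4.64. Of 11 satellite glia genes, 11 were at least 2-fold higher (median log2 ratio 2.33): the lipid carrier Apoe was at 74.4 and 11.2, and the fatty acid-binding protein Fabp7 at 11.4 and 2.58. The glial transcription factor Sox10 was under the filter, at 0.591 and 0.157. Of 5 immune genes, 5 were higher (median 4.14), among them Cd74 and H2-Aa of antigen presentation by MHC class II, the macrophage lysozyme Lyz2 and the complement gene C1qb. The lists held 24 fibroblast, 14 satellite glia and 13 immune genes, and the rest did not reach 1 UMI per 10000 in either group. The fibroblast list holds the definition markers Apod, Lum and Smoc2. Its count, median, sums and detection here and below were therefore in part set by the definition. A gene that passed only through its level in Ach1 had to be higher there, so the counts are a description beside the sums of whole lists given next. Of the defining genes of these cells, Pdgfra of fibroblasts and Ptprc of leukocytes had 1 UMI each in the 55 neurons, against 0 and 2 in the noradrenergic neurons. The list genes at 0 in the 55 neurons were Fbln1, Dpt and Pi16 for fibroblasts, Kcnj10 for satellite glia and Cx3cr1 for immune cells. The Schwann cell gene Mbp, of the myelin sheath, was at 1.55 in Ach1 and 0.430 in the noradrenergic neurons.

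The 3 lists did not lie alike in the noradrenergic subtypes. Summed fibroblast markers were at 121 UMIs per 10000 in Ach1, 76.0 in NA3 and 2.06 to 2.88 in the other noradrenergic subtypes. Satellite glia markers were at 126 in Ach1, 240 in NA3 and 5.22 to 8.09 in the others. Immune markers were at 12.4 in Ach1, 2.18 in NA3 and 0.589 to 0.899 in the others. NA3 thus lay above Ach1 for glia and below it for immune markers, while for fibroblast markers it lay below the 55 neurons and above the 53, which were at 51.9. Endothelial, mural, leptomeningeal and red blood cell genes stayed under 1 UMI per 10000 in both groups, so that 0 of each list was compared: Pecam1 of endothelium had 2 UMIs in the 55 Ach1 neurons and Acta2 of smooth muscle 1. In the Ach1 neurons of the other mice the summed endothelial and mural levels were 6.35 and 6.23 UMIs per 10000, against 1.70 and 1.03 in replicate 4. The 2 deep neurons carried much of the fibroblast sum, at 483 per 10000, and little of the glial and immune sums, at 52.2 against 140 and 0.916 against 14.6. In the 53 alone, 9 of 10 fibroblast, 11 of 11 glial and 5 of 5 immune genes remained past 2-fold, beside 15.7% of the 2426 genes then compared. In the other mice the summed levels in Ach1 and in the noradrenergic neurons were 199.9 and 6.84 for fibroblast, 82.5 and 59.1 for satellite glia and 19.1 and 1.11 for immune markers. The immune sum leaned on 1 neuron of replicate 1, with 124 immune UMIs (69.3 per 10000). The median of those 9 Ach1 neurons was 4.22 immune UMIs per 10000, against 13.2 in the 53. Against the 81 noradrenergic neurons of replicate 4 within 1482 to 5055 UMIs, a reference chosen after seeing the data, the median log2 ratio was 3.43 for the fibroblast list and 1.39 for the satellite glia list. These markers, the low depth and the mitochondrial share described below moved with the cluster, and their part in its other differences was not tested.

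**Figure D3:**
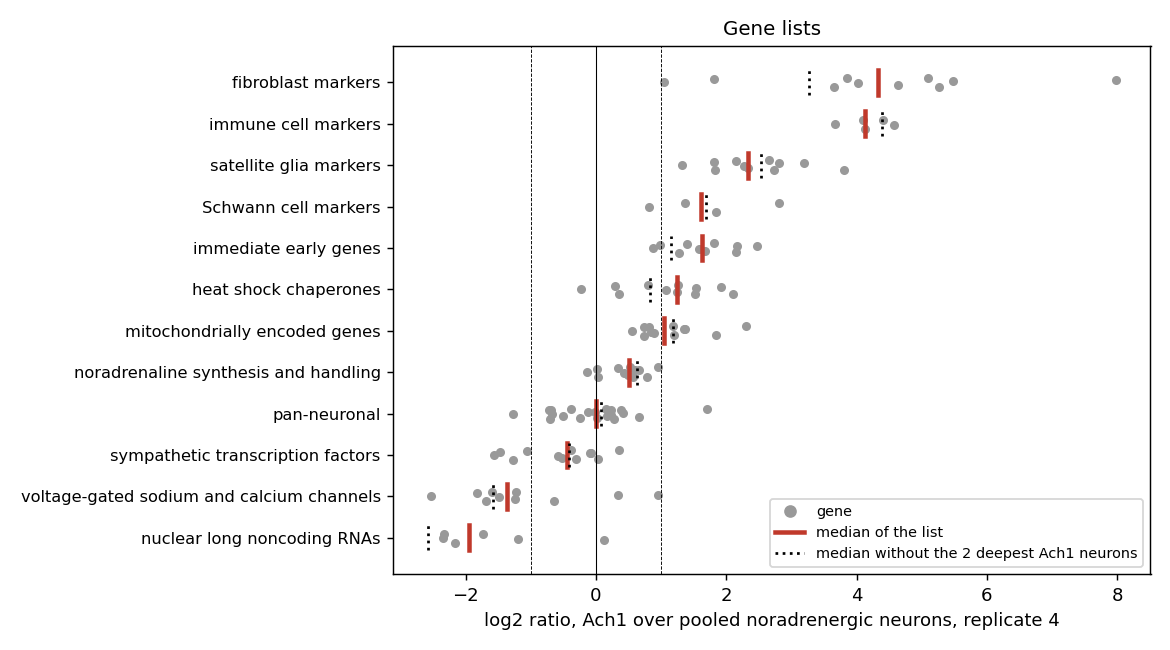
Log2 ratio of Ach1 over the pooled noradrenergic neurons of replicate 4 for each gene compared (grey points) of 12 lists, with the median of each list (red) and the same without the 2 deepest Ach1 neurons (dotted); dashed lines mark 2-fold. Fibroblast, immune and satellite glia lists lie to the right of 2-fold with medians of 4.34, 4.14 and 2.33, pan-neuronal genes lie around 0, and nuclear long noncoding RNAs lie at a median of -1.94.

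Most of the 53 neurons held transcripts of all these cells at once. With every neuron thinned to 1000 UMIs, UMIs of fibroblast markers were found in 53 of 53, of satellite glia markers in 53 of 53 and of immune markers in 43 of 53. All 3 lists were found in the same neuron in 43 of 53 (81.1%, exact binomial interval 68.0 to 90.6%), against 1 of 156 noradrenergic neurons of replicate 4 (0.641%, 0.0162 to 3.52%) and 0 of 17 Ach2 neurons. At full depth the counts were 51 of 53 and 34 of 156, with median depths of 2041 and 4551.5 UMIs. Dbh or Th was found in 48 of the 53 after thinning (90.6%) and in 110 of 156 noradrenergic neurons (70.5%). In the 53, each neuron had between 4 and 22 UMIs of fibroblast markers (15.6 to 95.2 per 10000, median 54.5) and between 13 and 102 of satellite glia markers (73.2 to 318 per 10000, median 141). Of the 156 noradrenergic neurons, 7 fell in this fibroblast range and 6 in this glial range, and neurons above a range are not counted. The 14 NA3 neurons of replicate 4 had a median of 144 satellite glia UMIs per 10000 and reached 773. Their fibroblast markers had a median of 11.9 and reached 251.

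The 53 neurons were also alike. In neurons thinned to 1000 UMIs, the variance over the mean of a gene between neurons, which is about 1 when neurons differ by random sampling of one profile, had a median of 1.00 in the 53, over 228 genes with a mean of at least 0.5 UMIs in replicate 4 and 0.2 in the group. In the noradrenergic subtypes of replicate 4 the median was 1.10 to 1.21, and in Ach2 1.30. The 2 deep Ach1 neurons were set aside after their values were seen, and no neuron was set aside in the other groups. With all 55 Ach1 neurons the median was 1.05, and the ratio passed 2 for 5 genes. The ratio passed 2 for 3 of the 228 genes in the 53, named here after their values were seen: Meg3 (3.39), Gm42418 (2.49) and mt-Nd4l (2.08). In NA1a it passed 2 for 22 genes, in NA2 for 22 and in Ach2 for 41. The ratio depends on the number of neurons, which ranged from 14 to 55, and no test was made of these differences.

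**Figure D4:**
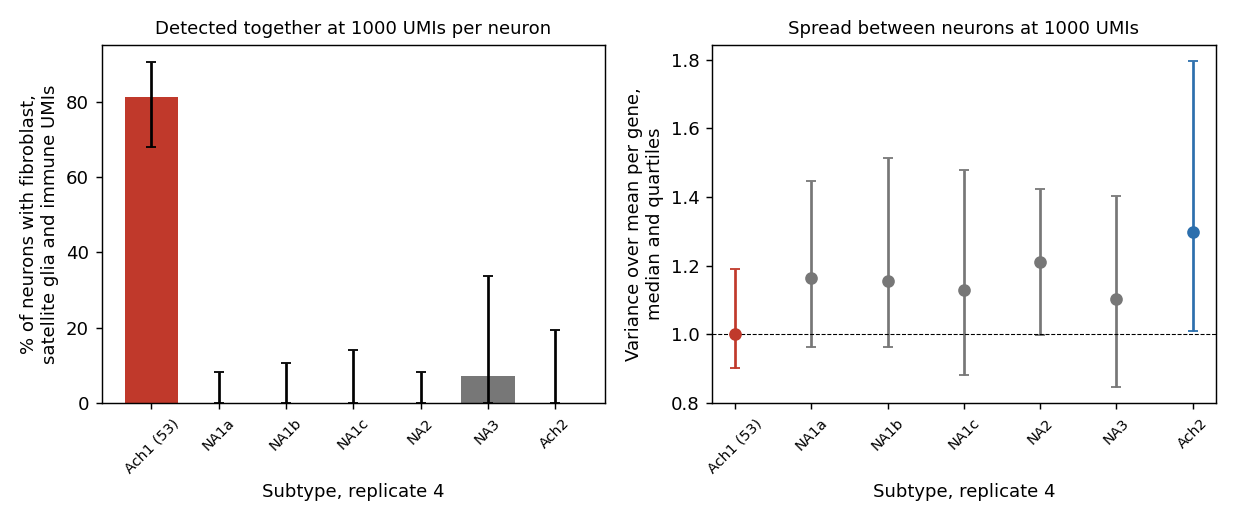
Left, percentage of neurons of replicate 4 with at least 1 UMI of each of the fibroblast, satellite glia and immune lists after thinning to 1000 UMIs, with exact 95% binomial intervals; 81.1% of the 53 Ach1 neurons and at most 7.14% of any other subtype drawn. Right, median and quartiles over genes of the variance over the mean between neurons at 1000 UMIs, with a dashed line at 1. The 53 Ach1 neurons lie at 1.00 and the other subtypes, from which no neuron was set aside, at 1.10 to 1.30.

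In replicate 4, mitochondrial transcripts were high and nuclear long noncoding RNAs low. The median share of UMIs from mitochondrial genes was 8.22% in the 53 (6.52 to 13.6%), against 6.45% in NA2, 5.21% in NA3 and 0.985 to 1.36% in NA1a, NA1b and NA1c. Of 12 mitochondrially encoded genes compared, 6 were at least 2-fold higher than in the noradrenergic neurons (7 without the 2 deep neurons), beside 14.1% of all genes, and 0 were lower (median log2 ratio 1.04), with mt-Atp8 at 12.2 and 2.47 UMIs per 10000. Of 6 long noncoding RNAs retained in the nucleus or of nuclear function, 5 were at least 2-fold lower (median -1.94), beside 16.4% of all genes. Malat1 was at 255 and 848 UMIs per 10000, Meg3 at 48.4 and 246 and Snhg11 at 19.8 and 99.1, while Neat1 was at 2.73 and 2.51. The summed level was 328 in Ach1, between NA2 (32.7) and the other noradrenergic subtypes (1121 to 1661). In the 53 it was 214, and in the 2 deep neurons 921. In the other mice Ach1 and the noradrenergic neurons lay closer, at 931 and 1096, and against the 81 neurons of similar depth the median log2 ratio was -1.07. Summed mitochondrial levels in Ach1 and the noradrenergic neurons were 282 and 520 in replicate 1 and 152 and 440 in replicate 3. They were 1425 and 569 in replicate 2 and 1105 and 484 in replicate 5. Against the same 81 neurons the mitochondrial median log2 ratio was 0.54.

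Many immediate early genes and chaperone genes were higher. Of 10 immediate early genes, 8 were at least 2-fold higher in Ach1 than in the noradrenergic neurons, beside 14.1% of all genes, and 0 lower (median log2 ratio 1.63). Without the 2 deep neurons 6 were, beside 15.7%. Of the 8, Ier2, Nr4a1, Btg2 and Atf3 were under 1 UMI per 10000 in the noradrenergic neurons, so they were compared only through their level in Ach1. The transcription factor Atf3 was at 3.40 and 0.609 UMIs per 10000, Egr1 at 5.83 and 1.30, Nr4a1 at 3.32 and 0.745 and Fos at 6.79 and 2.12. NA3 had a higher summed level of this list, 85.2 against 48.4 in Ach1. Of 11 heat shock chaperones, 7 were at least 2-fold higher, beside 14.1% of all genes (4 without the 2 deep neurons, beside 15.7%), with the inducible Hspa1a at 37.0 and 8.64. Their summed level was 175 in Ach1, 144 in both NA2 and NA3, and 84.6 to 103 in NA1a, NA1b and NA1c. In replicate 4, 41 of 43 NA2 and 11 of 14 NA3 neurons lay within the chaperone range of the 53. Hsp90ab1, which is made constitutively, was at 32.0 and 37.5. The list of axon injury genes, which holds Atf3 too, had 2 of 6 genes higher, beside 14.1% of all genes, and 1 lower, beside 16.4%. Without the 2 deep neurons 2 were higher, beside 15.7%, and 0 lower, beside 17.4%. The median log2 ratio of this list was -0.14, with summed levels of 38.8 in Ach1 and 37.9 in the noradrenergic neurons.

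Across all genes compared, 57 (2.37%) were at least 2-fold higher in Ach1 than in every noradrenergic subtype of replicate 4, and 56 of them stayed at least 2-fold above the pooled noradrenergic neurons in the 53. In the Ach1 neurons of the other mice 32 of the 57 were at least 2-fold higher than in the noradrenergic neurons there. The 15 with the largest ratios and at least 20 UMIs were led by the matrix and secreted-protein genes Lum (log2 ratio 7.98, interval 6.08 to 11.1, with 2 UMIs in the noradrenergic neurons), Crispld2 (6.98), Angptl7 (6.69) and the eosinophil chemokine Ccl11 (5.92). They went on with Gpc3, a cell-surface proteoglycan (5.49), Smoc2 (5.48), Apod (5.27), the phosphoprotein Spp1 (5.19) and the collagens Col1a1 (5.10) and Col15a1 (4.81). The MHC class II genes H2-Eb1 (5.62) and H2-Aa (4.40), the transcription factor Cebpd (4.71), transferrin, Trf (4.53), and ceruloplasmin, Cp (4.29), completed the 15. Vip ranked below these at 3.81 (3.16 to 4.50).

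These leading genes were of different kinds by neuron. Crispld2, Angptl7 and Gpc3 had 26 of 36, 31 of 44 and 22 of 32 of their UMIs in the 2 deep neurons. H2-Eb1 and H2-Aa had 0 UMIs there, and H2-Eb1 was found in 22 of the 55 neurons against 5 of 156 noradrenergic neurons. In the Ach1 neurons of the other mice Lum was at 8.31 UMIs per 10000 and Ccl11 at 6.11, above replicate 4, while Angptl7 was at 0.244 against 3.25 in replicate 4.

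In the other direction, 21 genes (0.873%) were at least 2-fold lower in Ach1 than in every noradrenergic subtype, and all 21 were also at least 2-fold lower than the pooled noradrenergic neurons in the 53. In the other mice 17 of the 21 were lower in Ach1, and 1 of them by 2-fold or more. The share of all genes that were lower in those mice is not given, so these counts have no background. Named by the same rule were the vesicle proteins Stxbp5l and Syt7, the netrin receptor Unc5c, the Notch co-activator Maml3 and the transcription factor Tead1, each with 1 UMI in the 55 Ach1 neurons. Syt7 had 111 UMIs in the noradrenergic neurons (log2 ratio -3.98, interval -9.30 to -1.47), and Unc5c 102 (-3.86, -9.18 to -1.35). The splicing factor Rbfox1 was at 0.295 and 1.78 UMIs per 10000, a log2 ratio of -2.59, and Ppfibp2 at 0.738 and 3.19 (-2.11). Vps13a, Phf14, Zfhx2, Man1a2, Pdgfa, Phactr3, Mrps15 and Bicd1 lay between -2.74 and -2.03. All were low genes, at 1.01 to 3.19 UMIs per 10000 in the noradrenergic neurons and under 1 in Ach1, so they were compared only through the noradrenergic level.

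Ach1 neurons outside replicate 4 formed no single pattern. The neuron of replicate 5 held 2209 UMIs and fell among the 53 in its fibroblast (36.2 UMIs per 10000), satellite glia (104), mitochondrial (1105) and long noncoding RNA levels (190). The 3 neurons of replicate 1 held 5058 to 17897 UMIs, with long noncoding RNA levels of 949 to 1223, above each of the 53, which ran from 115 to 622. Their fibroblast markers were at 7.13 to 115. The 2 neurons of replicate 2 had fibroblast levels of 374 and 35.5, and the neuron of replicate 3 had 6.33, below every one of the 53. The 2 neurons of the unmatched mouse were at 365 and 642, like the 2 deep neurons of replicate 4 at 267 and 628. Over the 9, fibroblast markers were at a median of 93.3 per 10000, satellite glia markers at 45.3 and noradrenaline genes at 54.8, against 54.5, 141 and 97.5 in the 53.

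**Figure D5:**
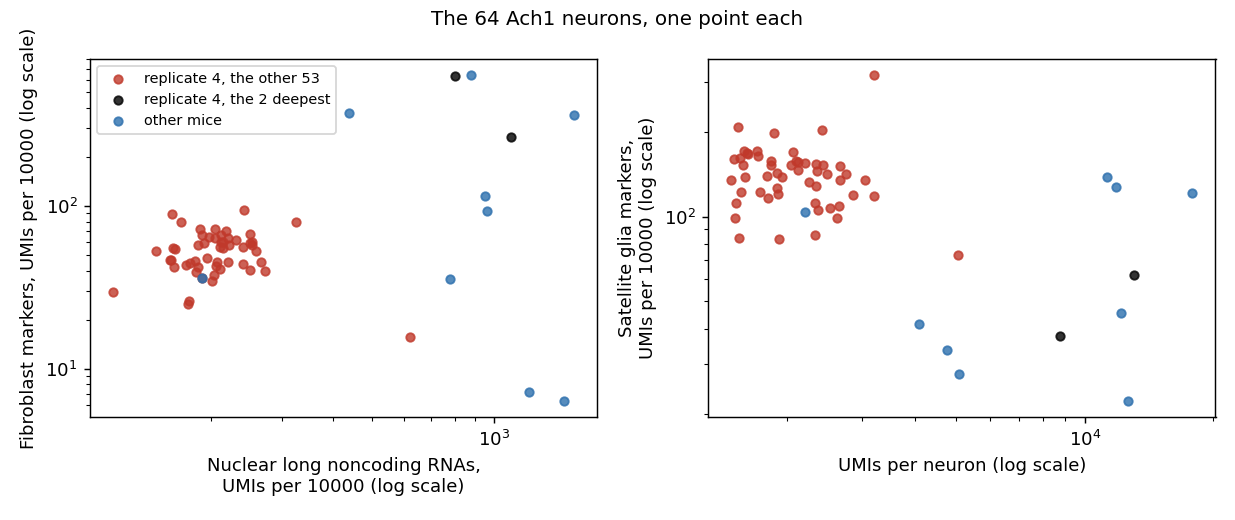
Each of the 64 Ach1 neurons as 1 point on log scales, with fibroblast markers against nuclear long noncoding RNAs (left) and satellite glia markers against UMIs per neuron (right). The 53 neurons of replicate 4 (red) gather at 115 to 622 long noncoding RNA UMIs per 10000 with the 1 neuron of replicate 5, and the 2 deepest of replicate 4 (black) lie among the neurons of other mice (blue).

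Pooled over all mice, the level of Dbh in Ach1 was 12.2 UMIs per 10000 (10.8 to 13.8), against 6.03 in NA3 to 12.1 in NA1b (11.6 to 12.7), so that the intervals of Ach1 and NA1b overlapped. Vip was at 2.95 (2.27 to 3.76) in Ach1, against 1.38 in NA2, the highest noradrenergic subtype, and 83.8 in Ach2. Apod was at 18.0 and at most 2.13, in NA3, and Lum at 6.44 and at most 0.385, in NA3. Ach1 was thus above each noradrenergic subtype for these 4 markers in the pool as in replicate 4, for Dbh by less than the counting error. Most pooled Ach1 neurons were of replicate 4. By matched mouse, Dbh was higher in Ach1 than in the noradrenergic neurons only in replicates 2 and 4. Vip was higher in Ach1 in replicate 4 and in replicate 3 (2.11 and 0.416), where it rests on 1 UMI. It was lower in replicates 1 (0.843 and 0.968), 2 (0 and 0.317) and 5 (0 and 0.116). Only in replicate 4 did the Vip intervals of Ach1 and the noradrenergic neurons not overlap.

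Over the 2406 genes, the profile of Ach1 in replicate 4 was most like NA2 (Pearson's r of log levels 0.803, Spearman's rho 0.711), then NA3 (0.771 and 0.563), NA1a (0.678), NA1b (0.664), Ach2 (0.615) and NA1c (0.559). These coefficients are across genes of groups of the same library with different depths, and genes are not independent replicates. NA2 was also the subtype with the fewest genes past 2-fold from Ach1, 715, against 866 in NA3 and 893 to 1183 in NA1a, NA1b and NA1c.

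Neither tracer transcript was found in the cluster. GFP, from the heart, and tdTomato, from the paws, each had 0 UMIs in the 64 neurons, which allows a share of neurons with a tracer UMI of up to 4.69% and sets no limit on the share that carried a virus. In the 1140 noradrenergic neurons of all mice GFP was found in 6 (0.526%). A share with a GFP UMI as low as that of the noradrenergic neurons was not detectable in 64 neurons.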

How the data were processed

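Single-cell libraries of stellate ganglia from 8 mice were analysed from 1 table of 1303 neurons by 19224 genes. By the study's methods and the submitters' processing notes, the authors aligned reads with Cell Ranger 2.1.1 to GRCm38 with the GFP sequence added, required of each cell over 500 but under 6000 genes, under 20000 UMIs and under 15% mitochondrial RNA, and named subtypes by clustering after integration in Seurat v3. All 1303 neurons passed that filter. The methods name no step against doublets, and none was added here. The authors deposited each value as the natural log of 1 plus the UMIs per 10000 UMIs of the neuron, before integration. UMIs were recovered from the steps of these values, and 100% of the nonzero values came out whole within 0.01.

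Counts were summed over the neurons of a group and given per 10000 UMIs with exact 95% Poisson intervals. Shares have Clopper-Pearson intervals, and a count of 0 allows up to 3 counts. Log2 ratios have exact intervals for 2 Poisson counts, set 0 counts at 3, and were taken for genes at 1 UMI per 10000 or more in Ach1 or the pooled noradrenergic neurons of replicate 4. Calculations ran in Python 3.11.15 with SciPy 1.17.1, pandas 2.3.3 and NumPy 2.4.6. Ratios and intervals were tested on simulated counts. Depth was 679 to 19949 UMIs per noradrenergic neuron over all mice, which sets the width of the intervals.

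The 26 gene lists, the markers and the members were chosen with earlier results of these data known. Genes were named as follows: the 5 markers of the definition, genes that the study names with this cluster or uses for neurons, in each direction the 15 genes with the largest ratio among those past 2-fold from every noradrenergic subtype with at least 20 UMIs in the higher group, and in each list up to 4 members with the largest ratios and those that define it. Values of some list members are not reported here. The 3 unmatched mouse names were left out of values by mouse. Other filters, references, scalings and sets of neurons were tried.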

Additional observations from a re-analysis of the deposited data

Results flagged for a closer look

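Among 30 measures compared over the 5 matched mice, 2 had a mouse far from the other 4 by Dixon's criterion, which flags about 1 in 20 groups by chance. The share of Ach1 among neurons was 23.4% in replicate 4 and 0.508 to 1.76% in the others. Summed immune cell markers in the noradrenergic neurons were 2.97 UMIs per 10000 in replicate 2 and 0.661 to 1.05 in the other mice, while in replicate 4 they were 0.756.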

How the results depend on the processing

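The fibroblast, satellite glia and immune lists stayed higher in Ach1, and the nuclear RNA and channel lists lower, under every alternative run, while counts of genes past 2-fold and the noradrenaline list depended on the choices. Of 296 alternative values for 26 results, 199 stayed within 1.5 times the reported count or within its interval or SD, and 0 reversed a result past 2-fold. In the order higher, lower, higher than every subtype and lower than every subtype, the reported counts were 340, 394, 57 and 21. A filter of 0.5 UMIs per 10000 gave 747, 831, 104 and 70, as more low genes entered, and one of 3 gave 95, 85, 16 and 1, with a fibroblast median log2 ratio of 4.96. All 8 mice pooled gave 165 higher, 200 lower and 3 lower than every subtype, medians of 1.15 for glia and -1.01 for nuclear RNAs, and levels of 2.95 for Vip, 12.2 for Dbh and 18.0 for Apod. The mean over mice of log2 ratios, which compares both groups within each mouse, gave 138 and 20 genes and medians of -0.046 for noradrenaline genes, 2.20 for fibroblast, 1.00 for glia and -0.83 for nuclear RNAs. Leaving out each mouse from the pool gave 166 to 234 higher, 186 to 306 lower, 42 to 75 and 3 to 33 for every subtype, the 33 without replicate 4, which also gave 1 end of each of these medians: -0.38 to 0.48 for noradrenaline genes, 3.89 to 4.45 for fibroblast, 0.69 to 1.36 for glia and -1.19 to -0.58 for nuclear RNAs. The mean share of Ach1 then ran from 0.932 to 6.66%, the lowest without replicate 4. Means over neurons gave 42 lower than every subtype, a fibroblast median of 3.24, and 7.73, 2.88 and 3.44 for Apod, Lum and Smoc2. The unweighted mean of subtypes gave 3.05 for fibroblast and 1.11 for glia. Without NA3 the counts for every subtype were 169 and 32 and these medians 5.79 and 4.83. Thinning to 1000 UMIs gave 32 and 61 for every subtype, 3.24 for fibroblast, and Vip, Dbh, Apod, Lum and Smoc2 in 36.4, 83.6, 50.9, 18.2 and 25.5% of Ach1 neurons. Without the deepest and shallowest 10% of Ach1, 58 genes were lower than every subtype and the fibroblast and nuclear RNA medians were 3.46 and -2.57. Of the alternatives chosen after seeing the data, leaving out the 2 deepest Ach1 neurons gave 45, 3.38 and -2.58 for the same results, and 5.72, 2.47 and 2.64 for Apod, Lum and Smoc2. The 81 noradrenergic neurons of similar depth, 38 of them NA2, gave 23 genes higher than every subtype and medians of 3.43, 1.39 for glia and -1.07. Without NA2 the counts for every subtype were 119 and 225 and the nuclear RNA median -2.16. Other than the filters, the cause of these shifts was not tested. With 1 mouse behind 55 of 64 members, differences between mice cannot be told apart from the cluster, and a gene under about 3 counts in either group gives a ratio with a wide interval.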
